A study of Mus musculus with 7 samples.

Results

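The miRNA cargo of extracellular vesicles released by adipose tissue was described in male C57BL/6J mice kept on a chow diet for 12 weeks. The description covers the 4 vesicle libraries of chow-fed mice among the 7 libraries of the series. The other 3 libraries came from mice on a high-fat diet and were not used, so no effect of diet was measured. All 1038 entries annotated as mouse miRNAs in the combined table of 1084 entries were kept, and 774 of them had at least 1 count in a Chow library. The tissue is labelled only as adipose, with no depot, and nothing in the labels tells whether a library is 1 animal or a pool. The 4 libraries are therefore treated as samples of a group whose spread may be partly technical.

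A miRNA is cut from a hairpin precursor, and either the 5′ strand (5p arm) or the 3′ strand (3p arm) of that hairpin can be loaded into an Argonaute protein. Bases 2 to 8 of the mature strand form the seed, which pairs with target mRNAs, so miRNAs with the same seed share many of their predicted targets. Extracellular vesicles are membrane-bound particles that carry part of a cell's small RNA into the surrounding fluid and the blood, and fat is a known source of circulating vesicle miRNAs.

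The libraries fall into a deep and a shallow pair. Chow 1 held 2120098 annotated miRNA counts and Chow 4 held 2294761, whereas Chow 2 held 180694 and Chow 3 held 48840. Levels are given as CPM, the count scaled to an annotated total of 1000000. Where a miRNA had 0 counts, up to 3 cannot be told from 0, a level of 1.42 CPM in Chow 1, 1.31 CPM in Chow 4, 16.6 CPM in Chow 2 and 61.4 CPM in Chow 3. Such floors, like the intervals given here, hold for counting error alone, since amplified reads without molecular identifiers do not stand for separate molecules. No library file was a copy of another: the chi-square of their counts per degree of freedom ranged from 45.4 to 604 over the 6 pairs, which does not tell whether libraries share an animal. Across the 110 miRNAs with at least 10 counts in each library, the Spearman correlation between libraries ranged from 0.807 to 0.889, a description over miRNAs that share these libraries.

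Mature sequences come from RefSeq (mouse build GRCm38.p6), which gave a sequence for 878 of the 1038 entries. The entries without one held 3.00% of the counts of Chow 1, 5.73% of Chow 4, 7.46% of Chow 2 and 5.59% of Chow 3. The sequences below belong to the leading members of the largest seed families, with the seed in capitals, so that the bases shared and not shared within a family can be read off.
miR-148a-3p: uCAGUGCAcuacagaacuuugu
miR-152-3p: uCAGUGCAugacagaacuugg
miR-148b-3p: uCAGUGCAucacagaacuuugu
miR-10b-5p: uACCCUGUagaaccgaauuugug
miR-10a-5p: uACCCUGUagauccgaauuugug
miR-99a-5p: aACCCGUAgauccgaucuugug
miR-100-5p: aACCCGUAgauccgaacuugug
miR-99b-5p: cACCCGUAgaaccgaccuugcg
let-7f-5p: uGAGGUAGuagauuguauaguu
let-7i-5p: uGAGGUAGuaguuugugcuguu
let-7c-5p: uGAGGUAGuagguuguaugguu
let-7g-5p: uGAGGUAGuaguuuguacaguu
miR-30a-5p: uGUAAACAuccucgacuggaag
miR-30c-5p: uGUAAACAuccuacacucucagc
miR-30e-5p: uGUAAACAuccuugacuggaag
miR-21a-5p: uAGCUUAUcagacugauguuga
miR-26a-5p: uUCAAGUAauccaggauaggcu
miR-27b-3p: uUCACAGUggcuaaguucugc
miR-27a-3p: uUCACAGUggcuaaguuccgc
miR-200a-3p: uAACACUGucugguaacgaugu
miR-141-3p: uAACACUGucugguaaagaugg

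Counting positions from 1 at the 5′ end, miR-10b-5p and miR-10a-5p differ by the substitution A12U, miR-99a-5p and miR-100-5p by U16A, and miR-27b-3p and miR-27a-3p by U19C. miR-148a-3p and miR-148b-3p differ by C9U and U10C. How many mismatches the authors' alignment allowed is not given in the sources used here, so the split of reads between such close members carries an uncertainty that the counts do not show.

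The next sequences are shown because single results turn on them: an opposite-strand pair, a gene cluster with a blank member, a pair of gut and kidney miRNAs, and the entries that differed most between shallow and deep libraries. Seeds are again in capitals.
miR-24-3p: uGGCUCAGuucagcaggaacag
miR-3074-5p: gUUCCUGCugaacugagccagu
miR-182-5p: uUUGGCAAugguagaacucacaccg
miR-183-5p: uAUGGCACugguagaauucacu
miR-96-5p: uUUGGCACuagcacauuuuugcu
miR-215-5p: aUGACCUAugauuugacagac
miR-192-5p: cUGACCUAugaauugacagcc
miR-5119: cAUCUCAUccuggggcugg
miR-3470b: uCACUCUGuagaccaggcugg

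A single miRNA, miR-148a-3p, made up 57.2% of the counts of Chow 1, 39.7% of Chow 4, 43.8% of Chow 2 and 58.0% of Chow 3 (mean 49.7% ± 9.31, SD, n = 4). It ranked first in every library. miR-148a-3p is known to rise as fat cells differentiate and to favour that differentiation, and its gene lies on chromosome 6 (mature strand at chr6:51269829-51269850, minus strand, GRCm38), outside any annotated host gene. The exact 95% binomial intervals (Clopper-Pearson) were 57.1 to 57.3% in Chow 1, 39.6 to 39.8% in Chow 4, 43.5 to 44.0% in Chow 2 and 57.5 to 58.4% in Chow 3. Each depth pair thus held a library with a high share and a library with a low one, and the libraries lay much further apart than counting error.

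Behind it came miR-10b-5p, miR-99a-5p and miR-10a-5p. miR-10b-5p, encoded among the Hoxd genes (chr2:74726074-74726096, plus strand, in introns of Hoxd3 and Hoxd4), held 6.45% of the counts of Chow 1, 11.2% of Chow 4, 5.86% of Chow 2 and 3.31% of Chow 3. Its near copy miR-10a-5p (chr11:96317186-96317208, plus strand, no host gene in the annotation) held 4.82%, 8.27%, 4.17% and 2.38% in the same order. Both were lower in each shallow library than in each deep one. miR-99a-5p, known to target the growth kinase mTOR and located in an intron of the non-coding gene Mir99ahg (chr16:77598940-77598961, plus strand), held 3.61% of Chow 1, 7.10% of Chow 4, 9.08% of Chow 2 and 6.04% of Chow 3. For it the deep and the shallow libraries overlapped.

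The remaining miRNAs among the 10 most abundant were miR-21a-5p, miR-30a-5p, let-7f-5p, miR-30d-5p, miR-143-3p and let-7i-5p. miR-21a-5p, a widely abundant miRNA encoded within Vmp1, held 3.74% of Chow 1, 3.42% of Chow 4, 2.29% of Chow 2 and 1.71% of Chow 3, again higher in both deep libraries. miR-30a-5p, of a family known to favour fat cell formation, held 2.71%, 2.34%, 2.31% and 3.78%, and the pairs overlapped. miR-143-3p, a miRNA of smooth muscle and of maturing fat cells, held 0.702%, 1.02%, 2.27% and 1.83%, higher in both shallow libraries. The mean shares of let-7f-5p, miR-30d-5p and let-7i-5p were 2.57% ± 0.557, 1.62% ± 0.615 and 1.05% ± 0.517 (SD, n = 4).

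Ranks 11 to 20 were miR-378a-3p, let-7c-5p, miR-26a-5p, let-7g-5p, miR-200a-3p, miR-29a-3p, miR-24-3p, miR-3074-5p, miR-27b-3p and miR-100-5p, with mean shares between 1.05% and 0.511%. Neighbours in this order were mostly closer than their spread: from rank 5 to rank 7, for example, miR-21a-5p (2.79% ± 0.950), miR-30a-5p (2.79% ± 0.689) and let-7f-5p (2.57% ± 0.557) changed places between libraries. miR-200a-3p, a repressor of the transcription factors Zeb1 and Zeb2 that keeps cells epithelial, had the steadiest share of the 50 most abundant miRNAs. It held 0.806% of Chow 1, 0.798% of Chow 4, 0.768% of Chow 2 and 0.758% of Chow 3, a coefficient of variation (CV) of 2.97%. This held for scaling by the library total: with TMM scaling it had 9282 CPM in Chow 1 and 8212 in Chow 4, against 5494 in Chow 2 and 8938 in Chow 3. miR-146b-5p, a miRNA of fat cells and inflammation, followed with a CV of 6.52%.

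**Figure D1:**
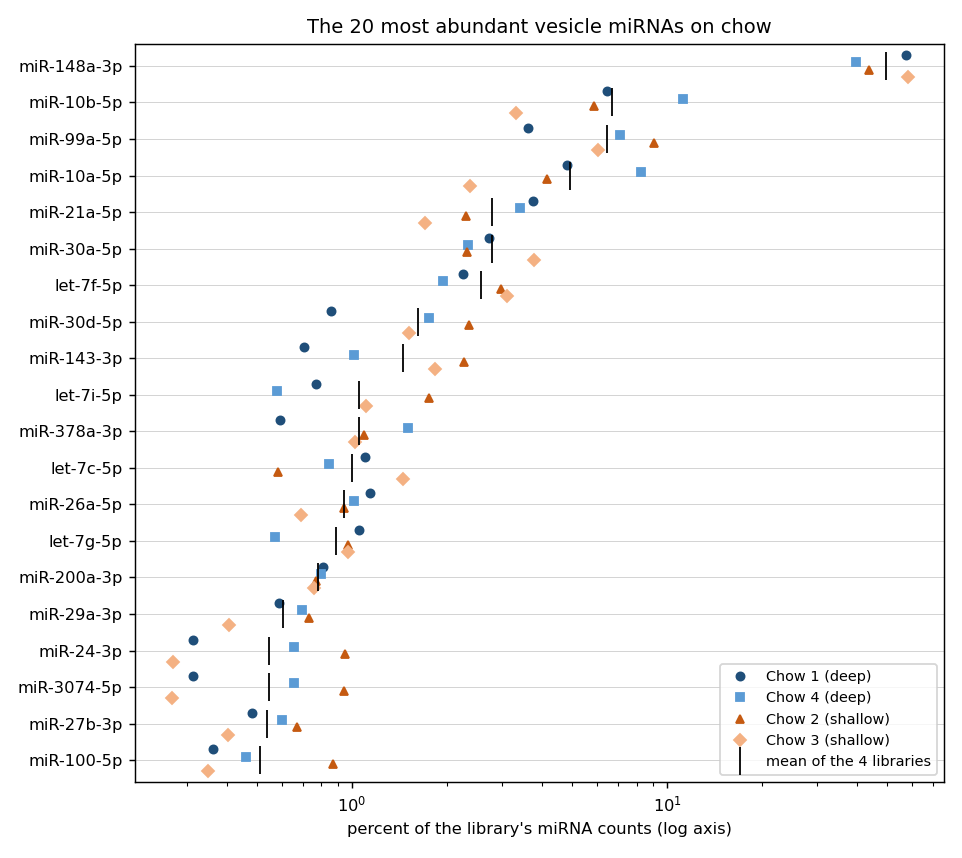
Share of each library's miRNA counts (log axis, percent) for the 20 miRNAs with the highest mean share, with 1 point per library and a vertical bar at the mean of the 4. miR-148a-3p stands far above all others at 39.7 to 58.0%, and miR-200a-3p shows nearly coinciding points.

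The cargo was concentrated on few miRNAs in each library. The 10 most abundant miRNAs held 83.1% of the counts of Chow 1, 77.3% of Chow 4, 76.8% of Chow 2 and 82.8% of Chow 3 (mean 80.0% ± 3.41, SD, n = 4). To reach 90% of the counts took 20 miRNAs in Chow 1, 28 in Chow 4, 29 in Chow 2 and 20 in Chow 3. Libraries with a high miR-148a-3p share thus had the fewer miRNAs in this count, and once miR-148a-3p was left out, 43, 44, 48 and 45 miRNAs were needed in that order. Depth did not separate the libraries on these measures.

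Detection did follow depth. At least 1 count was found for 636 miRNAs in Chow 1 and 672 in Chow 4, against 386 in Chow 2 and 265 in Chow 3. At an equal depth of 48840 counts, the numbers expected were 287 in Chow 1, 301 in Chow 4 and 298 in Chow 2, beside the 265 of Chow 3. Both deep libraries shared 543 detected miRNAs, and the 93 found in Chow 1 and not in Chow 4 and the 129 found in Chow 4 and not in Chow 1 had at most 20 counts in the library that held them. Every library held 240 miRNAs in common.

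By seed, a few families held most of the counts. The miR-148a family (miR-148a-3p, miR-152-3p and miR-148b-3p) held 57.5% of Chow 1, 39.9% of Chow 4, 44.2% of Chow 2 and 58.4% of Chow 3, and miR-148a-3p supplied 99.3% ± 0.240 of it (SD, n = 4). miR-152-3p, from an intron of Copz2, supplied 0.572% and miR-148b-3p, from an intron of Copz1, 0.139%. The miR-10 family followed with 11.6% ± 5.75 of the counts, the miR-99a family with 7.12% ± 2.59, the let-7 family with 6.43% ± 1.28, and the miR-30a family with 3.10% ± 0.645. Together these 5 families held 81.9% of Chow 1, 74.7% of Chow 4, 74.1% of Chow 2 and 82.4% of Chow 3 (mean 78.3% ± 4.48). They are 5 of 761 seed families among the matched entries.

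Within some families the balance of members was far steadier than the family's level. The miR-10 family ranged from 19.5% of the counts in Chow 4 and 11.3% in Chow 1 to 10.02% in Chow 2 and 5.69% in Chow 3. Yet miR-10b-5p made up 57.2% of it in Chow 1, 57.5% in Chow 4, 58.4% in Chow 2 and 58.3% in Chow 3. Its members differ by A12U alone and the mismatch setting of the alignment is not given, so this split carries the uncertainty described above. In the miR-99a family, miR-99a-5p supplied 90.8% ± 2.22, miR-100-5p 7.20% ± 1.79 and miR-99b-5p 1.96% ± 0.769. In the miR-27 family, known to restrain fat cell formation through Pparg, miR-27b-3p supplied 60.2% ± 4.31 and miR-27a-3p 39.8% ± 4.31.

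The let-7 family, which restrains growth and is held back by the RNA-binding protein Lin28, was spread over more members. Of its 10 entries, 9 were detected in every library, and let-7k was at 0 in all of them. let-7f-5p led with 37.9% of the family in Chow 1, 39.7% in Chow 4, 42.3% in Chow 2 and 39.7% in Chow 3. let-7i-5p supplied 16.0% ± 6.10, let-7c-5p 15.7% ± 4.94, let-7g-5p 13.9% ± 2.71, let-7a-5p 6.88% ± 3.69 and let-7b-5p 6.14% ± 1.47. Chow 2 departed from the others within the family: let-7i-5p made up 25.02% of it there, against 12.9% in Chow 1, 11.8% in Chow 4 and 14.1% in Chow 3. let-7c-5p made up 8.29% in Chow 2, against 18.5%, 17.3% and 18.6% in those libraries.

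Most smaller families had a clear lead member. miR-21a-5p supplied nearly all of its family, since miR-21c had 5 counts in Chow 4 and 0 in the others. miR-30a-5p supplied 89.6% ± 3.74 of the miR-30a family, with miR-30c-5p at 5.38% ± 1.92 and miR-30e-5p at 5.02% ± 2.67, and miR-26a-5p supplied 91.1% ± 2.36 of the miR-26 family. miR-30d-5p had no matched sequence and is in no family here. Added by name, it would raise the miR-30a family to 4.71% ± 0.653 of the counts and lower the part of miR-30a-5p in it to 59.1% ± 10.96 (SD, n = 4). The family of miR-146a-5p and miR-146b-5p, feedback brakes of inflammatory signalling, was shared more evenly, with miR-146a-5p at 58.8% ± 8.51 and miR-146b-5p at 41.2% ± 8.51.

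**Figure D2:**
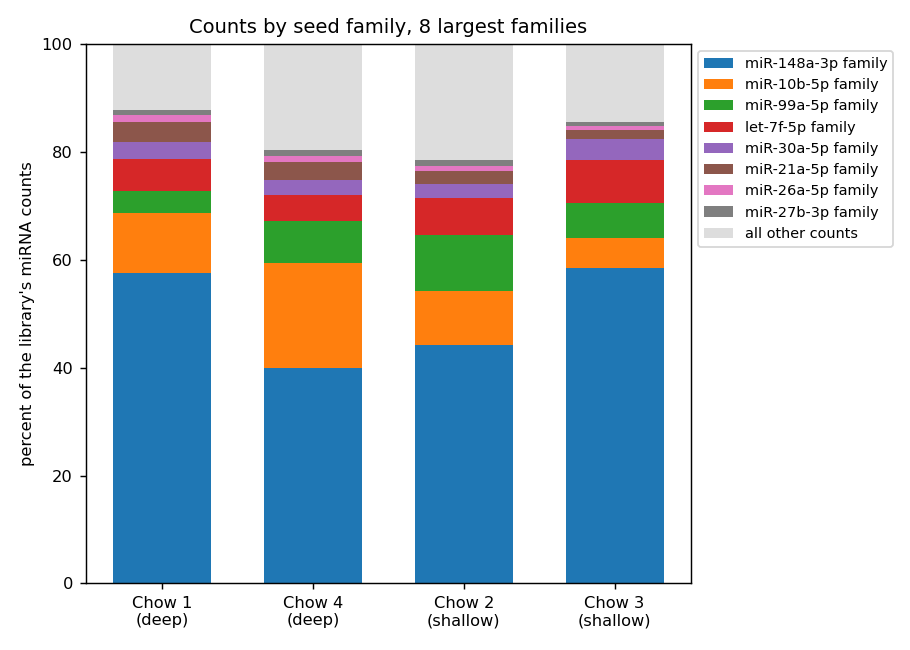
Percent of each library's miRNA counts by seed family (stacked bars from 0 to 100, deep libraries on the left), with the 8 largest families coloured and all other counts in grey. The miR-148a family fills 57.5 and 39.9% of the deep bars and 44.2 and 58.4% of the shallow bars, and the miR-10 family is widest in Chow 4.

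The 5p and 3p arms were compared by counts and by precursors. The 5p arm held 34.6% of the counts of Chow 1, 48.5% of Chow 4, 41.7% of Chow 2 and 31.8% of Chow 3. The balance turned once miR-148a-3p was left out: the 5p arm held 81.1% in Chow 1, 80.6% in Chow 4, 74.5% in Chow 2 and 76.9% in Chow 3. Without all of the 10 most abundant miRNAs the 5p share was 52.1% ± 3.51 (SD, n = 4), so the 5p excess also rested on a few abundant entries such as miR-10b-5p, miR-99a-5p and miR-10a-5p.

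Among the 319 precursors with both arms listed, 200 had at least 20 counts over the 4 libraries. For these 200, the arm ahead and the minor arm were judged on counts summed over the 4 libraries, in which the deep pair weighs most. The 5p arm was ahead in 106, the 3p arm in 93, and the arms were level in 1. Most precursors used their arms very unequally, since the minor arm held under 5% of the counts in 113 of them and under 1% in 63, and 45 had a minor arm of at least 20%. Of the 83 precursors with at least 10 counts in each library, 80 had the same arm ahead in all 4, namely the 5p arm in 47 and the 3p arm in 33. The arm ahead was therefore nearly always the same in deep and shallow libraries. Some precursors with nearly the same counts, such as miR-24 with miR-3074 and miR-1a with miR-1b, enter these tallies separately and under opposite arms.

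The extremes were the most abundant precursors. The 5p strand of miR-148a held 0.02% of its counts in Chow 1, 0.02% in Chow 4, 0.03% in Chow 2 and 0.02% in Chow 3. The 5p strand of miR-10b held between 99.7 and 99.8%, and that of miR-10a between 99.2 and 99.7%. miR-30a kept a visible passenger strand, with the 5p arm at 96.5% in Chow 1, 96.0% in Chow 4, 96.4% in Chow 2 and 97.9% in Chow 3. In miR-22 the 5p arm held 13.9%, 11.8%, 11.9% and 14.3% in that order, and in miR-24 it held 13.2%, 12.8%, 13.0% and 14.3%.

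Exceptions with mixed arms were few among the 60 most abundant precursors, where 5 had a minor arm of at least 20%: miR-199a, let-7d, miR-486a, miR-145a and miR-423. For let-7d the 5p arm held 64.3% in Chow 1, 41.3% in Chow 4, 26.7% in Chow 2 and 76.8% in Chow 3, so the leading arm changed within the deep and within the shallow pair. For miR-423 it held 55.01%, 28.8%, 42.3% and 31.0% in that order. In miR-145a, a smooth muscle miRNA made with miR-143, the 5p arm held 39.6% in Chow 1 and 10.04% in Chow 4, against 43.6% in Chow 2 and 39.5% in Chow 3. The arms of miR-486a stood at 48.1 to 50.1% for 5p in every library. Its 3p arm, its 5p arm and miR-486b-3p had nearly the same counts (763, 765 and 759 in Chow 1), so their reads cannot be told apart here.

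**Figure D3:**
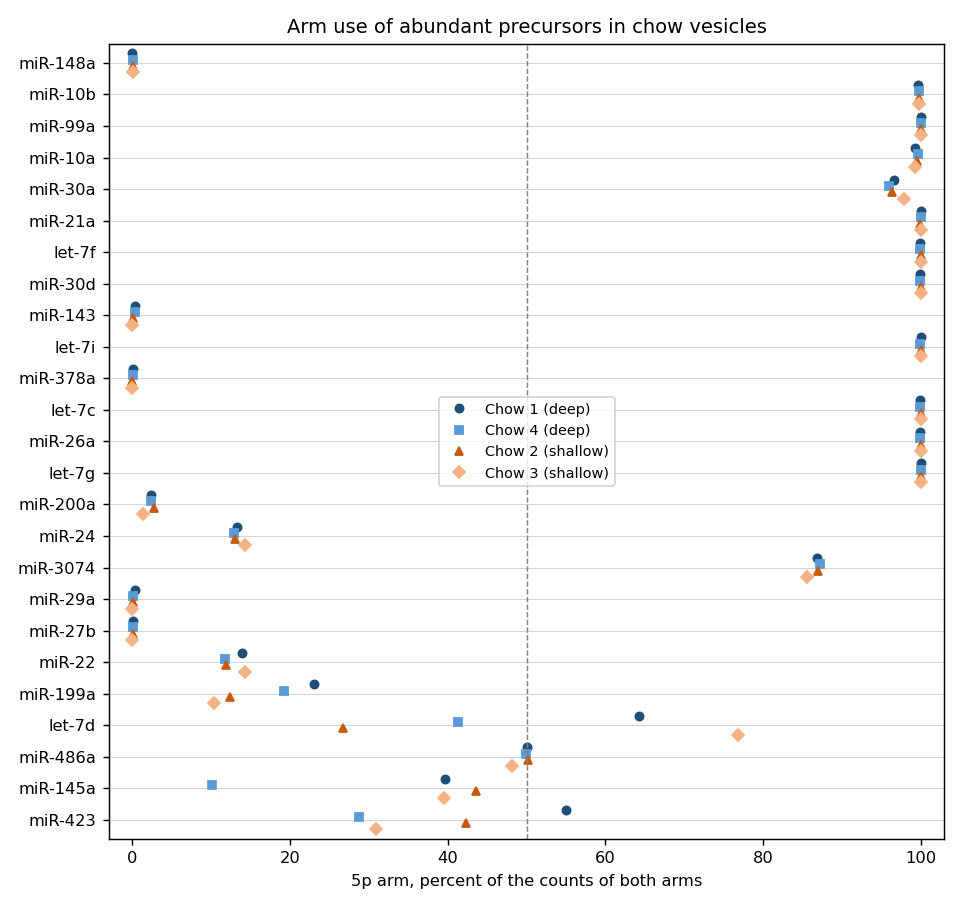
Percent of the counts of both arms that came from the 5p arm, by library, for the 20 most abundant precursors. The 5 of the top 60 whose minor arm held at least 20% of the counts summed over libraries are also shown. Points of most precursors coincide near 0 or 100%, while let-7d, miR-145a and miR-423 are spread across the axis.

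The matched miRNAs were compared in their base composition with all 1679 mature mouse miRNAs of the reference table. A first base U, the base that the pocket of Argonaute prefers, was present in 40.9% of the reference and in 43.3% of the 663 matched miRNAs with a count, but in 64.0% of the 50 most abundant. Weighted by the counts of matched entries, which are the total for all shares of bases, lengths and motifs, U-first miRNAs made up 92.1% of Chow 1, 84.5% of Chow 4, 81.7% of Chow 2 and 88.7% of Chow 3. Without miR-148a-3p these shares were 80.8%, 73.2%, 65.3% and 70.7%, so both deep libraries lay above both shallow ones. Lengths of 21 to 23 bases covered 83.2% of the reference, 94.0% of the 50 most abundant, and between 98.97 and 99.47% of the counts of each library.

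Sequence motifs reported for sorting of miRNAs into vesicles in other cells were counted as letters on the mature strand. The letters GGAG occurred in 14.2% of the reference miRNAs and in 10.6% of those with a count, and miRNAs with them held 0.206% of the counts of Chow 1, 0.399% of Chow 4, 0.423% of Chow 2 and 0.332% of Chow 3. Among the matched entries, the most abundant miRNA with GGAG was miR-378c, with a mean share of 0.134%. Entries without a matched sequence were not searched for either motif, among them the more abundant miR-378a-3p (mean share 1.05%). The letters CCCU occurred in 11.4% of the reference and 8.30% of those with a count, and miRNAs with them held 11.9% of the counts of Chow 1, 21.6% of Chow 4, 11.5% of Chow 2 and 6.46% of Chow 3. Nearly all of these counts were miR-10b-5p and miR-10a-5p, whose seed holds the letters from position 3. A match is a description of the letters only.

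Some miRNA genes lie within 10 kb of each other on the same strand and can be made from a shared transcript. In the annotation of GRCm38, 300 of the matched entries had a precursor in such a cluster, in 61 clusters. They held 16.1% of the counts of Chow 1, 22.3% of Chow 4, 23.1% of Chow 2 and 18.1% of Chow 3. Entries without a matched sequence, such as miR-30d-5p (mean share 1.62%) and miR-143-3p (1.46%), were placed in no cluster. These totals and the order of clusters therefore cover placed entries only. The cluster of Mir99a and Mirlet7c-1 (chr16:77598936-77599750, plus strand) led through miR-99a-5p, at a mean of 6.46%. The cluster of Mir200b, Mir200a and Mir429 (chr4:156053905-156055750, minus strand) held 1.51% of Chow 1, 1.41% of Chow 4, 1.08% of Chow 2 and 1.17% of Chow 3. Its members did not keep a fixed ratio: as a share of all counts miR-200a-3p varied little, whereas miR-200b-3p had 6069 CPM in Chow 1 and 5114 CPM in Chow 4, against 2524 CPM in Chow 2 and 3706 CPM in Chow 3. miR-429-3p had 734 and 748 CPM in the deep libraries and 288 and 348 CPM in the shallow ones.

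In the cluster of Mir183, Mir96 and Mir182 (chr6:30165918-30169737, minus strand), made as a unit in epithelia and sensory organs, miR-182-5p was missing from the shallow libraries. Chow 1 held 4808 counts of it and Chow 4 held 3740, which would correspond to 352 counts in Chow 2 and 95.2 in Chow 3 at the same mean share. Both shallow libraries are blank for it in the authors' separate table and 0 in the combined table. Its neighbour miR-183-5p had 4116 and 3905 counts in Chow 1 and Chow 4, against 292 and 62 in Chow 2 and Chow 3, and miR-96-5p had 815 and 403, against 14 and 3. Of the 77 entries for which at least 100 counts would correspond in Chow 2, miR-182-5p was the 1 blank and 76 had counts. Whether the blank means no reads or a value left out was not tested, and the blank alone is not read as absence. Sums that contain miR-182-5p, such as the epithelium list and the brown and beige fat list, nevertheless hold it as 0 in both shallow libraries.

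Pairs of entries annotated on opposite strands of a site had nearly the same counts in several cases. miR-24-3p and miR-3074-5p, whose mature sequences are complementary over 20 bases, had 6622 and 6614 counts in Chow 1, 15044 and 15038 in Chow 4, 1711 and 1709 in Chow 2, and 132 and 131 in Chow 3. Of 15 such pairs with at least 20 counts and with reference positions for both entries, 7 lay within 2% of each other. miR-122-5p and miR-122b-3p had the same counts in each library, and miR-1a-3p and miR-1b-5p nearly so, but they had no matched positions and are not among the 15. The second entries of the 7 pairs held 0.398% of Chow 1, 0.784% of Chow 4, 1.14% of Chow 2 and 0.332% of Chow 3. Whether the counting used the strand is not given in the sources used here, so the reads of such pairs cannot be told apart.

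Tissue-typical miRNAs were summed over 14 lists, which share some members and whose members are often made by more than 1 cell type. In such bulk samples, fewer cells of a type, fewer vesicles from each cell and less RNA in each vesicle cannot be told apart. The fat cell list was by far the largest: its 16 miRNAs, all detected in every library, held 63.6% of Chow 1, 47.2% of Chow 4, 51.4% of Chow 2 and 65.7% of Chow 3. miR-148a-3p supplied 86.9% of it. The median member had 1228 CPM, against 3.73 CPM over all entries with a count. A high median was not particular to this list. It was 1103 CPM for the gut and kidney list, 897 CPM for epithelium and 676 CPM for the 1 miRNA of the liver list. It was 12.4 CPM for striated muscle and 0.281 CPM for the pancreas list. Other members included miR-30a-5p with a mean share of 2.79%, miR-26a-5p with 0.945% ± 0.190, miR-146b-5p with 3159 CPM ± 206, and miR-103-3p, which affects insulin sensitivity through caveolin, with 540 CPM ± 81.0 (SD, n = 4). miR-103-3p had 517 CPM in Chow 1, 466 in Chow 4, 520 in Chow 2 and 655 in Chow 3.

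The brown and beige fat list held 1.24% ± 0.371, but 83.9% of it was miR-378a-3p, which the fat cell list also contains. miR-378a-3p, encoded in the gene of the mitochondrial regulator PGC-1beta, had 5913 CPM in Chow 1, 15041 in Chow 4, 10902 in Chow 2 and 10217 in Chow 3. The brown fat cluster miRNAs were far below miR-378a-3p. miR-193b-3p had 18.4 and 27.0 CPM in the deep libraries and 5.53 and 20.5 CPM in the shallow ones, where each value is 1 count. miR-365-3p had 55.7 and 76.3 CPM, against 166 and 81.9 CPM. miR-455-5p had 255 and 258 CPM in Chow 1 and Chow 4, against 315 and 348 CPM in Chow 2 and Chow 3.

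The epithelium list, with the miR-200 family and the miR-183 cluster, held 2.39% of Chow 1, 2.29% of Chow 4, 1.54% of Chow 2 and 1.68% of Chow 3. All 10 of its members were detected and 9 had counts in every library, miR-182-5p being the exception. In these sums miR-182-5p accounts for 0.227% of Chow 1 and 0.163% of Chow 4, and is held as 0 in the shallow libraries. Its median member had a mean of 897 CPM. The stroma and smooth muscle list held 1.204% of Chow 1 and 1.40% of Chow 4, against 2.72% of Chow 2 and 2.33% of Chow 3. The epithelium list was thus the larger of the pair in the deep libraries and the smaller in the shallow ones. Of the stroma list 73.2% was miR-143-3p, and other members varied in whether they followed it. miR-199a-3p, typical of fibroblasts, had 2254 CPM in Chow 1, 1407 in Chow 4, 2867 in Chow 2 and 3542 in Chow 3. By library total it was higher in both shallow libraries, like miR-143-3p, but the depth pairs overlapped under each other scaling. miR-199b-5p had 1119 and 237 CPM in the deep libraries and 66.4 and 143 CPM in the shallow ones. miR-145a-3p had 528 and 1600.6 CPM, against 564 and 471 CPM.

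Blood and vessel lists were smaller. The leukocyte list held 0.523% of Chow 1, 0.524% of Chow 4, 1.012% of Chow 2 and 0.373% of Chow 3, and 80.4% of it was miR-146a-5p, which many cell types make. The defining leukocyte miRNAs were lower. miR-142a-5p, found in all blood lineages, had 581 CPM ± 240, and miR-155-5p, a miRNA of activated immune cells, 235 CPM ± 206. miR-150-5p, of mature lymphocytes, had 101 CPM ± 68.6, and miR-223-3p, of myeloid cells, 12.3 CPM ± 10.9. In Chow 3, where 3 counts are 61.4 CPM, miR-155-5p and miR-150-5p had 1 count each and miR-223-3p had 0. miR-223-3p had 53 counts in Chow 1, 17 in Chow 4 and 3 in Chow 2. The means and SDs of miR-155-5p, miR-150-5p and miR-223-3p therefore include values below that floor. The red blood cell list held 0.325% ± 0.126, and 0.202% ± 0.0629 with miR-486a-5p, miR-486a-3p and miR-486b-3p counted as 1 entry. Its defining member miR-451a, which is cut by Ago2 and not by Dicer, had 1066 CPM in Chow 1, 1028 in Chow 4, 1909 in Chow 2 and 1556 in Chow 3, higher in both shallow libraries. The endothelium list held 0.199%, 0.2697%, 0.681% and 0.231% in that order, with Chow 2 highest. Its lead, miR-126a-3p from the Egfl7 gene, had 1732 CPM in Chow 1 and 2259 in Chow 4, against 5916 in Chow 2 and 2191 in Chow 3.

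Lists typical of other organs were low, and for several a single library set the mean. The gut and kidney list held 0.140% of Chow 1, 2.19% of Chow 4, 0.117% of Chow 2 and 0.0430% of Chow 3, and its mean of 0.623% was 0.0999% without Chow 4. All 3 members were highest in Chow 4: miR-215-5p had 1358 counts in Chow 1 and 37401 in Chow 4, against 2 in Chow 2 and 0 in Chow 3, miR-194-5p had 498 and 6688, against 51 and 7, and miR-192-5p 1108 and 6265, against 158 and 14. miR-215-5p and miR-192-5p share their seed, as the sequences above show. The striated muscle list held 0.0183% of Chow 1, 0.153% of Chow 4, 0.0155% of Chow 2 and 0.0389% of Chow 3, and its mean of 0.0564% was 0.0242% without Chow 4. miR-1a-3p led it with 310 counts in Chow 1 and 2708 in Chow 4, against 21 and 17, and miR-206-3p, specific to skeletal muscle, had 26 and 266, against 4 and 0. miR-208a-3p, of the heart, was at 0 in all libraries.

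The liver list was the single miRNA miR-122-5p, which hepatocytes make in great excess. Chow 1 held 387 counts of it and Chow 4 held 684, against 91 in Chow 2 and 84 in Chow 3, or 182.5 and 298 CPM, against 504 and 1720 CPM. Its mean share of 0.0676% was 0.0328% without Chow 3. The pancreas list held 0.139% ± 0.0658 and was almost wholly miR-375-3p, an islet miRNA, with 810 and 1469 CPM in the deep libraries and 2280 and 983 CPM in the shallow ones. Its acinar members were near 0, with miR-217-5p at 2 counts in each deep library and miR-216a-5p at 0 in all. The nervous system list held 0.133% ± 0.0772, mostly miR-128-3p at 1004 CPM ± 635, while miR-124-3p, the defining miRNA of neurons, had 1 count in Chow 4 and 0 elsewhere, and miR-137-3p was at 0 in all.

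The testis and epididymis list held 0.121% of Chow 1, 0.0931% of Chow 4, 0.0592% of Chow 2 and 0.0696% of Chow 3. All 15 members were detected in some library and 6 in every one. miR-34c-5p, also made in ciliated epithelium, had 675 and 493 CPM in the deep libraries and 321 and 225 CPM in the shallow ones. miR-881-3p, of the X-linked cluster active in male germ cells, had 324 and 256 CPM, against 166 and 348 CPM. Of the pluripotent cell list, 6 members were listed, 5 of them at 0 throughout and miR-295-3p at 1 count in Chow 4. The part of other cell types in any of these levels was not tested.

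**Figure D4:**
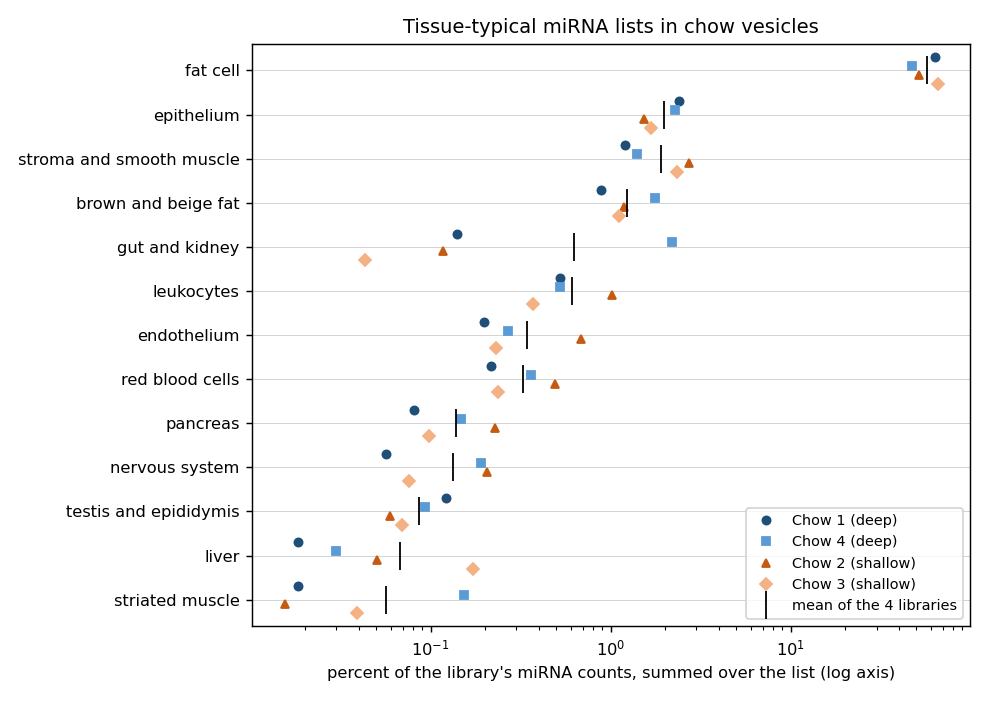
Share of each library's miRNA counts (log axis, percent) summed over 13 of the 14 tissue lists, with 1 point per library and a bar at the mean. The fat cell list lies at 47.2 to 65.7%, and the gut and kidney list shows Chow 4 at 2.19% far right of the others. The pluripotent list is not drawn because 1 count in all was found for it.

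Finally, the deep and the shallow pair were set side by side for the 110 miRNAs with at least 10 counts in each library, which held between 96.5 and 98.4% of the counts. With 2 libraries a side, an exact two-sided permutation test cannot give a p below 0.333, so none was made. Both deep libraries lay above both shallow ones for 17 of them (15.5%), and both shallow ones above both deep ones for 29 (26.4%), together 41.8%. Whether depth or another difference between these libraries goes with the order was not tested. With DESeq2 size factors the numbers were 24 and 26, so 48.0% of the miRNAs without overlap were higher in the deep libraries instead of 37.0%. The median log2 ratio of deep over shallow was -0.15 by library total, 0.08 with TMM scaling and 0.14 with DESeq2 size factors. In all 4 scalings tried, 12 miRNAs remained higher in both deep libraries and 22 in both shallow ones.

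The 6 miRNAs with the highest ratio among those without overlap were miR-141-3p, miR-340-5p, miR-30e-5p, miR-429-3p, miR-34c-5p and miR-218-5p, and all are among the 12. miR-141-3p, of the epithelial miR-200 family, had 1107 CPM in Chow 1 and 1277 in Chow 4, against 504 in Chow 2 and 389 in Chow 3, a log2 ratio of 1.42. miR-30e-5p had 2196 and 2048 CPM, against 725 and 1044 CPM, a log2 ratio of 1.26. miR-218-5p had 938 and 880 CPM, against 393 and 471 CPM, a log2 ratio of 1.07. Among the abundant miRNAs, miR-10a-5p (log2 ratio 1.00), miR-10b-5p (0.94) and miR-21a-5p (0.84) also remained higher in the deep pair in all 4 scalings.

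The lowest ratios belonged to miR-3470b, miR-3470a, miR-122-5p with miR-122b-3p, which had the same counts, miR-615-3p and miR-99b-3p, all among the 22. miR-3470b had 42 counts in Chow 1 and 76 in Chow 4, against 30 in Chow 2 and 31 in Chow 3. As a level this was 19.8 and 33.1 CPM in the deep libraries and 166 and 635 CPM in the shallow ones, a log2 ratio of -3.92. miR-615-3p, encoded in the Hoxc cluster, had 24.1 and 281 CPM, against 891 and 389 CPM, a log2 ratio of -2.07. miR-99b-3p had 71.7 and 133 CPM, against 443 and 307 CPM, a log2 ratio of -1.87. miR-143-3p (log2 ratio -1.26), let-7i-5p (-1.09) and let-7b-5p (-1.04) remained higher in the shallow pair in all 4 scalings.

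An entry outside this comparison had its counts in the shallow libraries. miR-5119, chosen after its values were seen, had 2 counts in Chow 1 and 0 in Chow 4, against 165 in Chow 2 and 285 in Chow 3, where it was 0.0913% and 0.584% of all counts. miR-5106 had 1 count in Chow 1, 0 in Chow 4 and Chow 2, and 43 in Chow 3. In total 9 entries had a count in a shallow library and in no deep one.

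Base composition was then set beside these ratios. The median GC content was 40.9% over the 16 matched miRNAs higher in the deep libraries and 47.6% over the 23 matched ones higher in the shallow libraries, which was also the median of the 50 that overlapped. Across the 89 matched miRNAs, the Spearman correlation of GC content with the log2 ratio was -0.43. The correlation was -0.55 for the ratio of Chow 1 over Chow 4, both deep, and 0.36 for Chow 2 over Chow 3, both shallow. GC content thus moved with differences within each depth class as well, and its part in the deep and shallow differences was not tested.

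**Figure D5:**
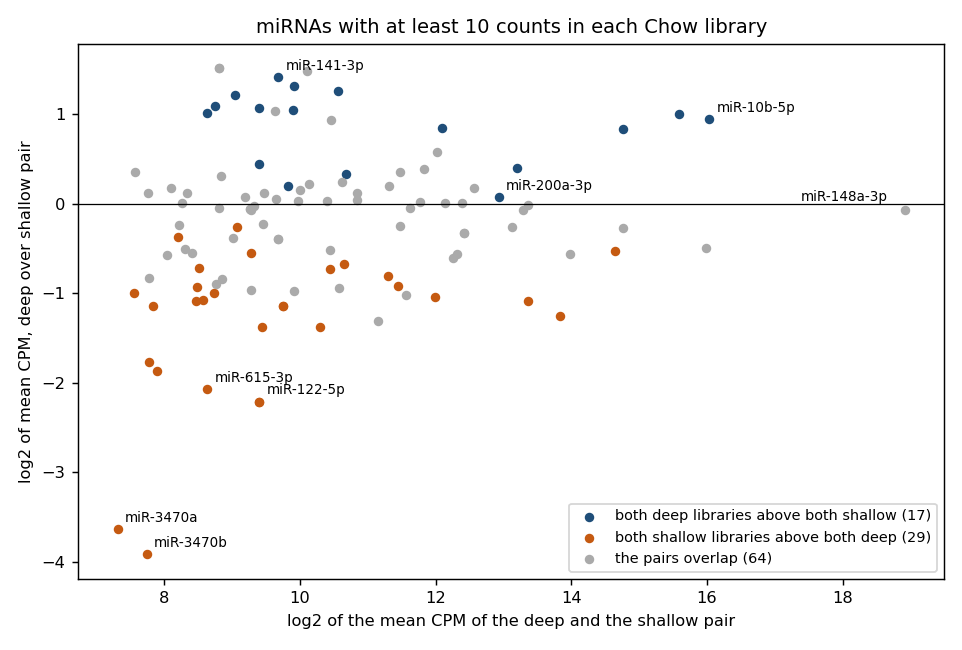
Log2 ratio of mean CPM in the deep pair (Chow 1, Chow 4) over the shallow pair (Chow 2, Chow 3) against the log2 of their mean CPM, for 110 miRNAs. Blue points (17) are higher in both deep libraries, orange points (29) in both shallow ones and grey points overlap, and miR-3470a and miR-3470b lie lowest at -3.64 and -3.92.

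The spread between the 4 libraries exceeded counting error for most of the cargo. Over the same 110 miRNAs the median CV was 46.6%, against 7.64% from counting alone, and 108 of the 110 lay above their counting CV. The CV was under 25% for 21 miRNAs and over 100% for 7. Among the 50 most abundant, the lowest CVs were those of miR-200a-3p, miR-146b-5p, miR-183-5p (17.0%), miR-148a-3p (18.8%) and miR-221-3p (20.01%). The highest were those of miR-215-5p (190%), miR-5119 (166%), miR-125a-5p (84.8%), miR-708-3p (76.3%) and miR-99b-5p (74.3%). miR-125a-5p had 532 CPM in Chow 1 and 3171 in Chow 4, against 1007 in Chow 2 and 921 in Chow 3, so Chow 4 stood above the rest.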

How the data were processed

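Small RNA of adipose vesicles was extracted with Trizol and sequenced from Illumina libraries, per the labels' protocols. Each deposited value is a raw count of reads for a mature miRNA entry, per the file headers. Bowtie is named in the submitters' processing notes, without a version. Not given in the sources used here are the counting program, build, annotation release, filters, and the mismatch and strand settings. In the authors' separate Chow table, Chow 2 and Chow 3 are blank for 439 annotated entries that the combined table holds as 0, and no other values differed. The combined table was used, without the 46 predicted entries.

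Shares, CPM, seed families, arms, clusters and lists were computed in Python 3.11.15 with pandas 2.3.3, numpy 2.4.6 and scipy 1.17.1, and figures with matplotlib 3.10.9. Alternative scalings came from edgeR 4.0.16 (TMM) and DESeq2 1.42.0 in R 4.3.3. The arithmetic was tested on simulated data. Errors are SD over the 4 libraries, and exact intervals have a 95% level. Numbered copies of a precursor were summed. Families group matched entries by bases 2 to 8. Host genes and clusters come from GENCODE M21 (GRCm38), and the clusters join precursors at most 10 kb apart on 1 strand. Thinned detection is the number expected on random draws without replacement.

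The miRNAs named were drawn from the sets that follow, and not every member of a set is named. The sets are the 20 most abundant, up to 4 leading members of each list and of the 8 largest families, and members at 0. They include the 10 most abundant precursors, those with mixed or 3p-led arms, and the 6 highest and 6 lowest ratios. The last are the 5 lowest and 5 highest CVs, members of the 5 leading clusters and the 5 highest entries of a single deep library. Others were chosen after their values were seen: miR-5119, miR-5106, miR-182-5p, the abundant miRNAs that differed between depths, and the clusters outside the first 5. From the lists, miR-103-3p, miR-193b-3p, miR-365-3p, miR-199b-5p, miR-223-3p and miR-124-3p were named outside these rules. The members and lists were chosen with earlier results of these data known. No test between groups was made.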

Additional observations from a re-analysis of the deposited data

Results flagged for a closer look

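Of 127 sets of 4 values examined (named miRNAs with at least 10 counts in a library, lists with as many, the leading families and clusters and the measures per library), 13 had a library far from the others. Chance flags about 1 in 20 such sets, but the number cannot be read against that: miR-5119, miR-5106, miR-5110 and miR-1943-5p were named because few libraries held them, miR-215-5p is also among the highest CVs, and lists repeat their own members. A set is named here when the gap between its highest or lowest library and the nearest other exceeds Dixon's 95% critical share of the whole range.

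Chow 4 stood apart upward in 6 of these. miR-215-5p had 16298 CPM there, miR-194-5p 2914 CPM and miR-145a-3p 1600.6 CPM, while the highest of the other libraries had 641, 282 and 564 CPM. The gut and kidney list reached 2.19% and the striated muscle list 0.153% of the counts of Chow 4. miR-1943-5p, with 4.79 CPM, was counted in Chow 4 alone.

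Chow 2 stood apart upward in 4. miR-126a-3p had 5916 CPM, miR-146a-5p 8495 CPM and miR-9-3p 581 CPM there, and the endothelium list reached 0.681%. The highest of the other libraries had 2259, 3998 and 72.6 CPM for these miRNAs and 0.2697% for the list.

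Chow 3 stood apart for miR-5119, at 5835 CPM, and for miR-5106, at 880.4 CPM. Chow 1 stood apart for miR-5110, at 9.43 CPM from 20 counts, with 0 elsewhere.

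The 46 predicted entries left out of all comparisons had 73 counts in Chow 1 and 117 in Chow 4, and 0 in Chow 2 and Chow 3, where all are blank in the separate table. They were 0.00510% of the counts of Chow 4 and 0.00344% of Chow 1. The causes of these differences were not tested.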

How the results depend on the processing

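Of 224 recomputed values, 215 moved by less than the spread between libraries, or by less than 1.5-fold for counts. Leaving out a library, or keeping only the deep or the shallow pair, cannot move a mean share beyond that spread. Many of the 215 were therefore fixed in advance, and the number does not measure robustness. None of the 46 deep over shallow ratios without overlap changed sign under another scaling. The ratios of the 64 miRNAs whose pairs overlap were not recomputed singly, and the median of all 110 changed sign with the scaling, at -0.15 by library total, 0.08 with TMM and 0.14 with DESeq2 size factors. With miR-148a-3p left out of the total, the 10 most abundant of the rest held 62.3%, 45 miRNAs reached 90% of the counts, the 5p arm held 78.3%, the 5 largest families held 61.8% and the let-7 family 13.3%, since those shares then have a smaller total. The mean number of miRNAs detected, 490 at 1 count or more, was 326 in the shallow libraries alone, 288 with counts thinned to the smallest total and 260 at 10 counts or more, since fewer reads or a higher limit leave fewer miRNAs. With at least 3 counts in each library, 75 miRNAs had no overlap between deep and shallow libraries, against 46 of the 110 with at least 10 counts. More miRNAs are compared at the lower limit, and their share without overlap is not given, so these numbers do not tell whether the share changed. Leaving out any library kept all shares within their spread, which was bound to happen and tells nothing about how steady they are. By fold, the gut and kidney list (0.0999%) and the striated muscle list (0.0242%) without Chow 4 were lower by over 1.5-fold. So was the liver list (0.0328%) without Chow 3. The deep libraries alone, the shallow libraries alone the counting of near-identical opposite-strand entries once, of the miR-486 entries once, and the addition of miR-30d-5p to its family were chosen after seeing the data. No paired analysis was possible because the 4 libraries form a single group and no test between groups was made. The depth of Chow 3, where 3 counts are 61.4 CPM, limits what can be said of any miRNA below that level.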
